A study of Caenorhabditis elegans with 4 samples.

Results

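The regions described here, called members, are 985 HTZ-1 peaks on Caenorhabditis elegans chromosome IV that lie outside the piRNA clusters of that chromosome, out of 1352 peaks on the chromosome and 7546 in the whole combined list. They were chosen by position alone, as the combined-list peaks whose midpoint lay below 4.5 Mb, between 7 and 13.5 Mb, or above 17.2 Mb on WormBase WS220. These limits leave 3 stretches, called left (4.5 Mb, 412 peaks), middle (6.5 Mb, 553 peaks) and right (0.294 Mb up to the furthest peak end, 20 peaks). The remaining 367 peaks of the chromosome fall into the 2 intervals set aside as clusters, from 4.5 to 7 Mb and from 13.5 to 17.2 Mb. No position of a piRNA gene was used, so "inside" and "outside" refer to these interval limits only. At the first limit, the last peak inside the left stretch was at IV:4469977-4470480 (504 bp, overlapping neither replicate) and the next was at IV:4509203-4510851 (1649 bp, overlapping both). The limit at 13.5 Mb cuts through a group of peaks, since the last member, IV:13499586-13499770, ended 91 bp before the first peak left out, IV:13499862-13500865. The 2 limits at 7 and 17.2 Mb lie in distances of 52381 and 39293 bp between neighbouring peaks.

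HTZ-1 is the H2A.Z histone of the worm. It replaces H2A in some nucleosomes, and in many species those nucleosomes flank the start sites of genes. piRNAs are small RNAs that act in the germline with Argonaute proteins of the PIWI family to silence transposons and other foreign sequence. In C. elegans most of them are transcribed from separate short units that are crowded into broad domains of chromosome IV, amid and within ordinary genes. The remainder of the chromosome carries ordinary protein-coding genes and repeats without that crowding.

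The 2 groups of the series are HTZ-1 ChIP (n = 2) and input DNA (n = 2, not analysed here), all from wild-type embryos of strain N2 that were of mixed stage and of both sexes, at 20 °C. Chromatin was fixed with 2% formaldehyde for 30 min and precipitated with a rabbit polyclonal antibody against the N-terminus of HTZ-1. Whole embryos were used, so a site present in few cells and a site weakly occupied in many cannot be told apart. Whether the replicates were separate cultures is not stated in the labels. Each ChIP replicate has its own deposited list of peaks, with 3848 peaks in replicate 1 and 3650 in replicate 2, and the combined list carries no sample name. The replicate lists name MACS as their source and the combined list names MACS v2. Whether this bears on the widths, the overlap or the division of peaks between lists was not tested. The read depth behind the lists is unknown. With 2 ChIP samples no test over samples can be made, and bins or peaks of 1 chromosome are not replicates, so the values below are given side by side with no p. Intervals are 95% intervals for counting error only, exact binomial for shares and exact Poisson for densities, and neighbouring peaks are not independent.

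HTZ-1 sites outside the clusters were spread along the whole of the left and middle stretches, at 87.2 peaks per Mb (interval 81.9 to 92.8). In the left stretch the density was 91.6 peaks per Mb (82.9 to 100.8) and in the middle stretch 85.1 (78.1 to 92.5). The short right end had 68.1 peaks per Mb, with an interval of 41.6 to 105 because it rests on 20 peaks. The replicate lists, which hold fewer and wider peaks, put the middle stretch above the left. Replicate 1 had 40.9 peaks per Mb on the left and 45.8 in the middle, and replicate 2 had 38.7 and 42.6. The ratio of left to middle was thus 1.08 (0.945 to 1.22) in the combined list, against 0.892 (0.738 to 1.08) in replicate 1 and 0.907 (0.746 to 1.10) in replicate 2, and all 3 intervals hold 1.

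The number of sites per 0.5 Mb varied from 26 to 74. In bins of 0.5 Mb, the left stretch had a mean of 91.6 ± 26.5 peaks per Mb (SD over 9 bins) and the middle stretch 85.1 ± 26.0 (SD over 13 bins). The fullest bin, from 11 to 11.5 Mb, held 74 combined-list peaks, and it also held the most replicate peaks of any bin outside the clusters, 30 in replicate 1 and 29 in replicate 2. The next were the neighbouring bins from 2.5 to 3 Mb (67 peaks) and from 3 to 3.5 Mb (62 peaks). These held 23 and 25 peaks in each replicate list, counts that other bins also reached. The emptiest bins were those from 2 to 2.5 Mb, with 26 peaks, and from 10.5 to 11 Mb, with 28, followed by 30 peaks each in the bins from 3.5 to 4 Mb and from 9.5 to 10 Mb. In the bin from 2 to 2.5 Mb replicate 1 had 14 peaks and replicate 2 had 11, and in the bin from 10.5 to 11 Mb each had 13.

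**Figure D1:**
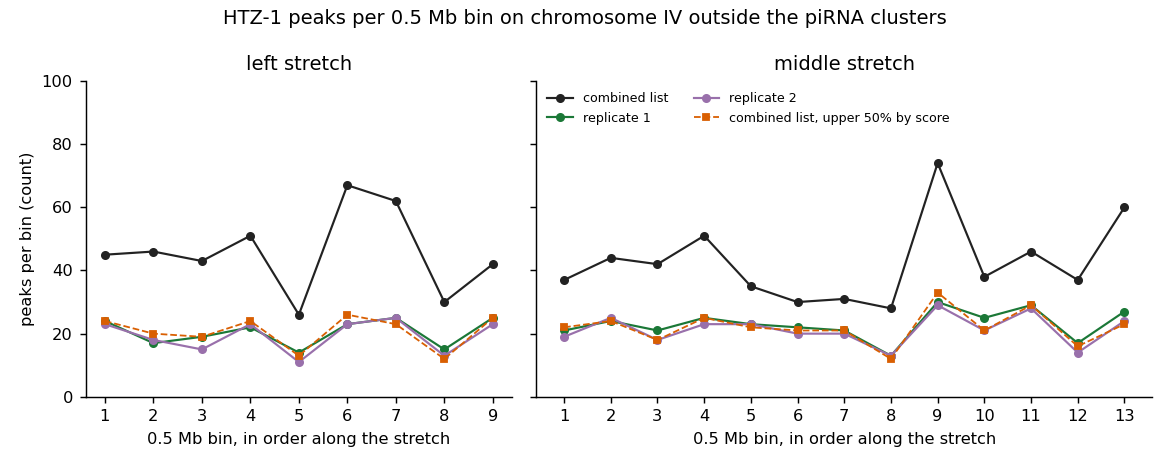
Peaks per 0.5 Mb bin (y axis, count) against the order of the bin along the left stretch (9 bins) and the middle stretch (13 bins) for the combined list, the replicate lists and the upper 50% of the combined list by score. The combined list peaks at 74 per bin, while its upper 50% runs close to both replicate lists, between 12 and 33 per bin.

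Strongly scored sites followed the replicate lists along these stretches more closely than weak ones did. Bin by bin, peaks in the upper 50% of the whole combined list by score had Pearson's r of 0.920 against replicate 1 and 0.943 against replicate 2 over the 22 full bins (Spearman's rho 0.853 and 0.902). For peaks in the lower 50% r was 0.409 and 0.439 (rho 0.359 and 0.414). Between the replicates r was 0.949. These coefficients describe the bins and carry no p, since the lists presumably come from the same libraries and bins share a chromosome. The contrast between strong and weak peaks is also at least partly built in. Outside the clusters, 458 of the 484 peaks in the upper 50% overlapped both replicates, and 4 of the 229 that overlapped neither were in the upper 50%. Counting the strong peaks per bin thus comes near to counting replicate peaks again, and the contrast is not a separate result. The bins from 2.5 to 3.5 Mb illustrate the weak fraction. Of their 129 peaks, 49 were in the upper 50% by score (37.98%, beside 50% of the list) and 80 in the lower, and their median width was 479 bp.

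The middle of the chromosome leaned the other way in score and width over a run of 3 bins. From 9 to 10.5 Mb there were 96 peaks, of which 74 overlapped both replicates (77.1%, interval 67.4% to 85.0%) and 8 overlapped neither (8.33%). Over the whole combined list, 57.6% of peaks overlapped both replicates and 23.3% neither. The bins from 2.5 to 3.5 Mb were near these values of the list. There, 54.3% overlapped both (interval 45.3% to 63.1%) and 27.9% neither (20.4% to 36.5%). Of their 129 peaks, 12 were in the upper 10% (9.30%). From 9 to 10.5 Mb, 64 of the 96 peaks were in the upper 50% by score. In the upper 10% there were 18 (18.75%, beside 10% of the list), and the median width was 1042.5 bp. The fullest bin, from 11 to 11.5 Mb, had 2 of its 74 peaks in the upper 10%, with 46 peaks overlapping both replicates and a median width of 812.5 bp. These runs of bins were picked after their values were seen.

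Compared with the 2 cluster intervals, the rest of chromosome IV carried more HTZ-1 sites per Mb in all 3 lists. The density was 87.2 outside against 59.2 peaks per Mb inside in the combined list, a ratio of 1.47 (interval 1.31 to 1.67). It was 43.5 outside against 26.3 inside in replicate 1, a ratio of 1.65 (1.38 to 1.99), and 40.9 outside against 26.9 inside in replicate 2, a ratio of 1.52 (1.27 to 1.82). By covered length, peaks took up 76.8 kb per Mb outside against 51.1 kb per Mb inside in the combined list, a ratio of 1.50, with ratios of 1.53 and 1.52 in replicates 1 and 2. Single bins overlapped widely. Outside, bins ran from 52 to 148 peaks per Mb with a mean of 86.9 ± 25.5 (SD, 23 bins), and inside from 20 to 98 with a mean of 58.5 ± 20.3 (SD, 12 bins). The clusters themselves were unlike, the first with 71.2 and the second with 51.1 peaks per Mb. The other autosomes together had 83.9 combined-list peaks per Mb, so that chromosome IV outside the clusters stood at 1.04 times their density, and at 1.02 and 1.00 times in replicates 1 and 2. Single autosomes ranged from 52.7 on V to 113 on I, so this closeness is to their sum and not to each of them.

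**Figure D2:**
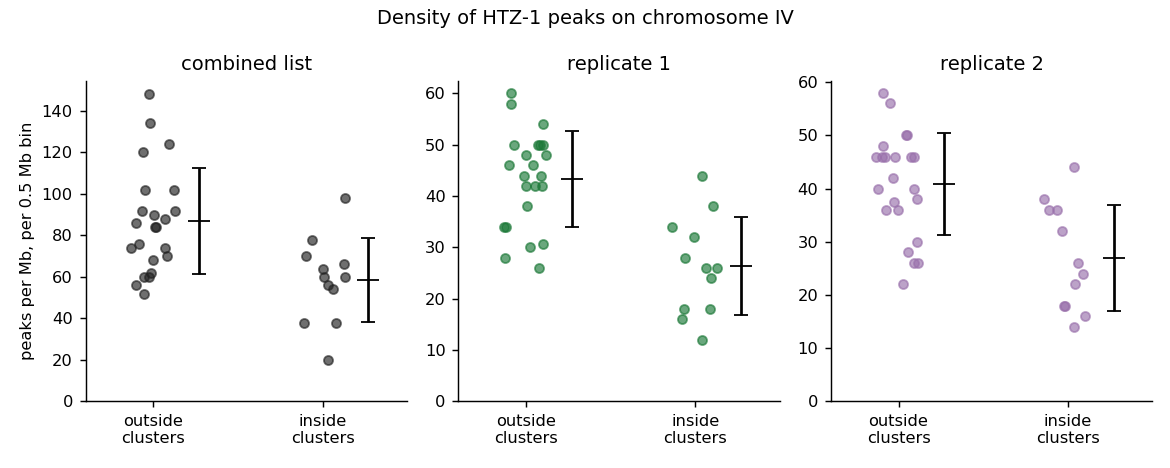
Peaks per Mb in each 0.5 Mb bin of chromosome IV (points), outside the clusters (23 bins) and inside them (12 bins), for each list, with the mean and SD over bins beside the points. Mean density is higher outside in each list, 86.9 against 58.5 in the combined list, and the bins of both kinds overlap.

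The typical distance from a site to the next was about the same outside and inside the clusters, and the long distances were not. The median distance from the end of a peak to the start of the next was 3537.5 bp outside (982 distances, interval of the median 3210 to 4095 bp) and 3297 bp inside (365 distances, 2179 to 4315 bp). In replicate 1 the medians were 10897 bp outside and 9835 bp inside, and in replicate 2 they were 11831 bp outside and 9816 bp inside. Distances over 50 kb made up 39 of 982 outside (3.97%) and 36 of 365 inside (9.86%). They held 26.7% of the summed distance outside and 56.1% of it inside. In the replicate lists the same shares were 41.4% outside against 71.5% inside in replicate 1, and 42.0% outside against 72.9% inside in replicate 2. The clusters differed in the combined list. In the first, 10 of 177 distances were over 50 kb (5.65%, holding 39.5% of the summed distance), and in the second 26 of 188 (13.8%, 67.0%). The first was thus near the left stretch, with 19 of 411 (4.62%, 33.6%). The middle stretch had 20 of 552 (3.62%, 23.1%), and the whole list 388 of 7536 (5.15%, 33.6%). When distances over 50 kb were taken out of the length, 115 peaks per Mb remained outside against 125 inside, a ratio of 0.925, with 0.915 in replicate 1 and 0.808 in replicate 2. That threshold was chosen after the distances were seen. The step took away 24.4% of the length outside and 52.5% inside, which by itself lowers the ratio. With 100 kb in its place the ratios were 1.21 in the combined list, 1.07 in replicate 1 and 0.946 in replicate 2. With 25 kb they were 0.767, 0.919 and 0.947.

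**Figure D3:**
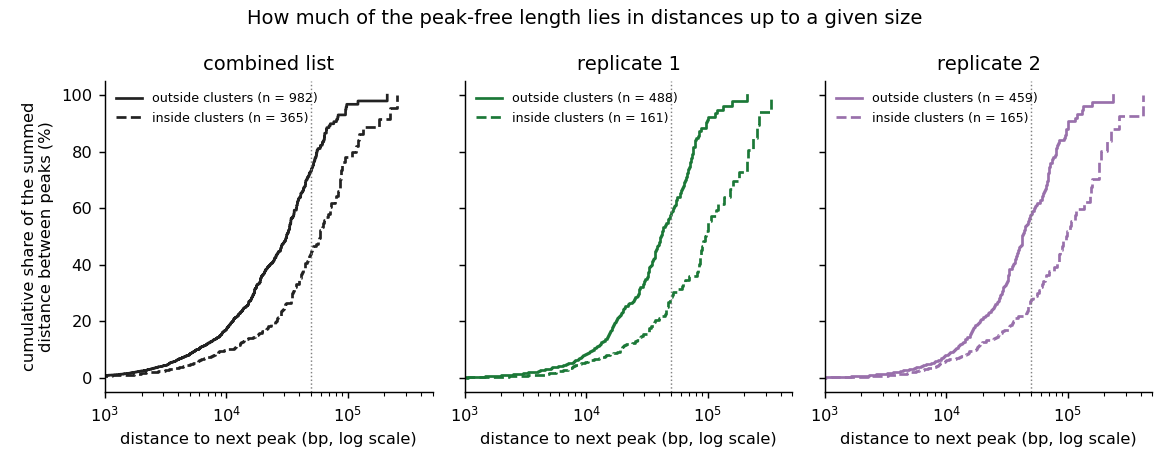
Cumulative share of the summed distance between neighbouring peaks (y axis, %) that lies in distances up to a given size (x axis, bp, log scale), outside the clusters (solid) and inside them (dashed), for each list. The dotted line marks 50 kb, and at that line the solid curve lies above the dashed curve in each list, since longer distances hold 26.7% of the total outside and 56.1% inside in the combined list.

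The longest stretch without a combined-list peak outside the clusters ran for 212 kb, at IV:3808207-4019920. No peak of either replicate lay wholly within it, and 1 replicate 1 peak reached into its edge. It was followed by 121 kb at IV:9525928-9647413 and 98.1 kb at IV:12732688-12830833, which likewise held no whole peak of either replicate. In contrast, many sites lay close together. Of the 982 distances, 264 were under 1 kb (26.9%, interval 24.1% to 29.8%), against 122 of 365 inside the clusters (33.4%, 28.6% to 38.5%). Over the whole list it was 1880 of 7536 (24.9%), so the share outside the clusters was near the background. In the left stretch it was 29.9% and in the middle stretch 24.8%. When peaks less than 1 kb apart were joined, the 985 peaks formed 721 groups, of which 539 were single peaks, 126 were pairs and 56 held 3 or more. The largest groups held 7 peaks each, at IV:1273835-1281879 (8045 bp, 6 of the 7 overlapping both replicates) and IV:2607842-2614043 (6202 bp, 3 of the 7). The 3 groups of 6 or more peaks were all in the left stretch, and the largest in the middle stretch held 5.

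Isolated sites could be strong. The member farthest from any other combined-list peak was IV:572001-573324, with 51773 bp to its nearest neighbour, a width of 1324 bp and a score at percentile 81.6 of the list. It overlapped peaks at percentile 72.9 of replicate 1 and at percentile 64.7 of replicate 2. The next, IV:7313510-7314889, was 49835 bp from its neighbour and stood at percentile 65.9, overlapping both replicates. The third, IV:2133572-2134324, was 42633 bp away and at percentile 45.8, and overlapped replicate 1 only, at percentile 10.1 there.

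Peak widths outside the clusters ran from 146 to 4385 bp, with a median of 696 bp (interval 615 to 781 bp) and quartiles of 305 and 1355 bp. Inside the clusters the median was 662 bp (537 to 780 bp), and over all 7546 peaks it was 720.5 bp. The left stretch had the lower median of the long stretches, 588 bp (506 to 674 bp), against 783 bp (675 to 900 bp) in the middle stretch. Within score classes the medians were close. Among peaks in the upper 50% by score the medians were 1338 bp on the left and 1336 bp in the middle, and in the lower 50% they were 314.5 and 302.5 bp. The left stretch held 226 peaks of the lower 50% beside 186 of the upper, and the middle stretch 266 beside 287. In the replicate lists the left and middle medians were 2442 and 2553.5 bp in replicate 1 and 2426 and 2411 bp in replicate 2. The widest members were IV:11520357-11524741 (4385 bp), IV:11854306-11857953 (3648 bp) and IV:3382841-3386388 (3548 bp). Each overlapped both replicates, and their scores stood at percentiles 83.5, 83.1 and 98.6 of the list.

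By score, sites outside the clusters were spread over the whole range of the list. The score has no stated scale, so only ranks within a list are used. The median rank was at percentile 49.4 of the combined list (interval 46.7 to 53.0) outside, against 46.2 (42.9 to 52.3) inside. The upper 50% of the list held 484 of the 985 peaks, or 49.1% (46.0% to 52.3%), where the background is 50% by construction. The left stretch had 45.1% of its peaks in the upper 50% (40.3% to 50.1%) and the middle stretch 51.9% (47.6% to 56.1%). The upper 10% held 109 peaks outside, or 11.1% (9.17% to 13.2%), against 26 of 367 inside, or 7.08% (4.68% to 10.2%), beside a background of 10% of the list. In the left stretch it held 48 of 412 (11.7%) and in the middle stretch 59 of 553 (10.7%).

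By score, the left stretch stood below the middle stretch in replicate 1, and they were alike in replicate 2. In replicate 1 the median peak stood at percentile 47.1 of its list on the left (interval 41.5 to 56.4). In the middle it stood at percentile 56.2 (50.8 to 62.0). In replicate 2 it stood at percentile 56.1 in both (44.7 to 63.0 on the left, 50.3 to 61.1 in the middle). The intervals of left and middle overlap in each replicate. Over pairs of overlapping replicate peaks, the percentile of the replicate 1 peak minus that of its replicate 2 partner had a median of -1.09 points on the left (161 pairs) and of 4.49 points in the middle stretch (260 pairs). Ties at a score of 3100 enter these ranks. Outside the clusters, replicate 1 had 64 of its 491 peaks at that score or above (13.03%), and replicate 2 had 27 of its 462 (5.84%), beside 13.4% and 4.85% of the whole lists. Spearman's rho of the paired scores was 0.907 over the 430 pairs outside the clusters and 0.875 over the 145 pairs inside. The midpoints of paired peaks lay a median of 81.25 bp apart outside and 98.5 bp inside. Peaks are not replicates, and no p is given.

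Replicate support outside the clusters was near that of the whole list. Of the 985 sites, 592 overlapped peaks of both replicates, which is 60.1% (interval 57.0% to 63.2%), against 211 of 367 inside (57.5%, 52.3% to 62.6%). The same share was 57.6% over the whole list. A further 127 (12.9%) overlapped replicate 1 only and 37 (3.76%) replicate 2 only, where 13.9% and 5.23% of all combined-list peaks did so. The remaining 229 (23.2%, interval 20.6% to 26.0%) overlapped neither, beside 23.3% of the whole list. These shares are near the background and are read as a description only. The left stretch had 58.0% of its peaks in both replicates (53.1% to 62.8%) and 26.5% in neither, and the middle stretch 61.8% (57.7% to 65.9%) and 20.3%. At the right end 11 of 20 were in both and 8 of 20 in neither. Without replicate 1, the share overlapping the remaining replicate was 63.9%, and without replicate 2 it was 73.0%.

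Width and score moved with support. Members in both replicates had a median width of 1199.5 bp and a median score rank at percentile 70.7. Those in neither had a median width of 259 bp and a rank at percentile 24.5, and 134 of the 229 were under 300 bp wide. Over the whole list, peaks in neither replicate had a median width of 268 bp and a rank at percentile 21.0. Members that met replicate 1 only or replicate 2 only were intermediate, with median widths of 391 and 442 bp and a median rank at percentile 32.3 each.

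**Figure D4:**
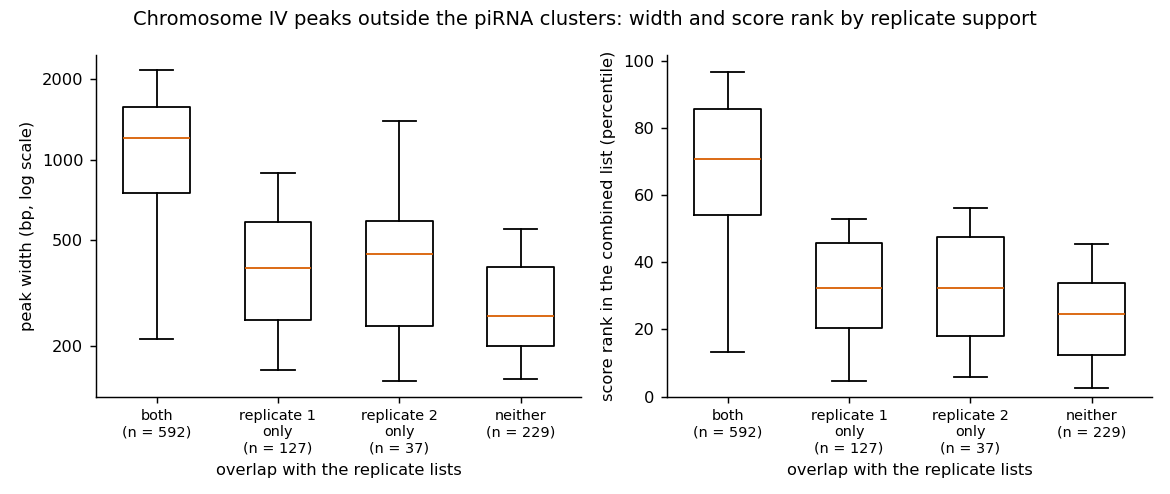
Width (left, bp, log scale) and score rank within the combined list (right, percentile) of the 985 peaks outside the clusters, by the replicate lists they overlap, with boxes at the quartiles, the median as a line and whiskers at the 5th and 95th percentiles. Peaks found in both replicates have the highest medians, 1199.5 bp and percentile 70.7, and those found in neither the lowest, 259 bp and percentile 24.5.

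Of the sites outside the clusters that scored in the highest 25% of the list, 257 of 257 overlapped both replicates, and inside the clusters 74 of 74 did. In the next class, from 50 to 75%, it was 201 of 227 (88.5%, interval 83.7% to 92.4%). It was 80 of 263 (30.4%) in the class from 25 to 50% and 54 of 238 (22.7%) in the lowest 25%. Over the whole list the same shares were 1885 of 1887 (99.9%), 85.7%, 26.3% and 18.5%, from the highest class to the lowest, so the members' shares were near those of all peaks. Since the combined list presumably rests on the same 2 libraries, this overlap may be partly built in. Most of the weak sites that met both replicates were side peaks of a stronger one. Of the 54 in the lowest 25%, 53 shared their peak in each replicate with a higher-scoring combined-list peak (98.1%, interval 90.1% to 99.95%). In the whole lower 50% it was 106 of 134 (79.1%), and in the upper 50% it was 46 of 458 (10.04%). Inside the clusters these counts were 24 of 24, 38 of 49 and 18 of 162. Over the whole list they were 353 of 354 (99.7%), 654 of 841 (77.8%) and 266 of 3503 (7.59%), so such sharing is a property of the lists and not of the members alone. Overlap by 1 bp thus counts a side peak as supported where the replicate list has 1 wide peak.

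**Figure D5:**
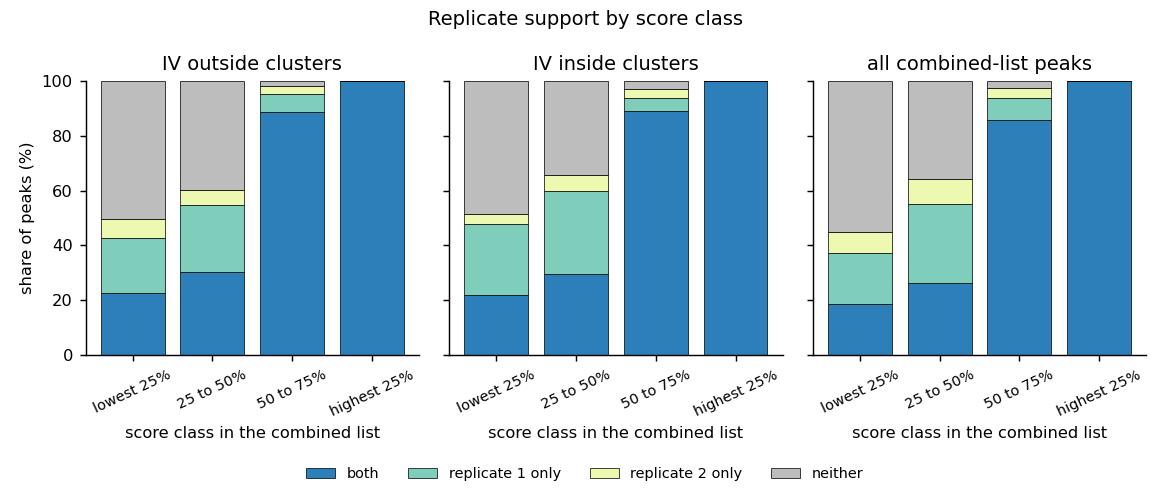
Share of peaks (y axis, %) that overlap both replicates, replicate 1 only, replicate 2 only or neither, in 4 classes of combined-list score, for chromosome IV outside the clusters, inside them, and the whole list. In the highest 25% by score 257 of 257 peaks outside the clusters overlap both replicates, and in the lowest 25% 54 of 238 do.

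Seen from the replicate lists, some HTZ-1 regions outside the clusters were divided in the combined list, which names another version of the peak caller. A replicate 1 peak there overlapped 1.46 ± 0.878 combined-list peaks (SD over 491 peaks) and a replicate 2 peak 1.36 ± 0.740 (SD over 462 peaks). In replicate 1, 145 of 491 held 2 or more outside the clusters (29.5%), against 57 of 163 inside (35.0%). In replicate 2, 120 of 462 did so outside (26.0%) and 49 of 167 inside (29.3%). Over all replicate peaks the share was 27.2% in replicate 1 and 23.3% in replicate 2, near the values outside the clusters. The share was higher on the left than in the middle in each list. In replicate 1 it was 61 of 184 (33.2%) against 82 of 298 (27.5%). In replicate 2 it was 56 of 174 (32.2%) against 64 of 277 (23.1%). Both lists are set against the same combined-list peaks, so these are not independent, and whether the differences exceed counting error was not tested. The replicate 1 peaks with most members held 6 each, among them IV:7788732-7800171 (11440 bp) in the middle and IV:2887907-2897832 (9926 bp) on the left. In replicate 2 the highest number was 7, at IV:1273394-1282391 (8998 bp), which covers 1 of the 2 largest groups named above. The strongest combined-list peak within a replicate peak mostly sat near its centre, with a median of 76.5 bp between midpoints in replicate 1 and 65.25 bp in replicate 2. Over the whole lists the medians were 70.5 and 65.5 bp, so this is not particular to the members. Outside the clusters, 72.7% of these distances in replicate 1 and 82.0% in replicate 2 were within 250 bp. In 346 of 491 and 340 of 462 replicate peaks the strongest was the only combined-list peak.

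Outside the clusters, 430 of 491 peaks of replicate 1 had a partner in replicate 2 (87.6%, interval 84.3% to 90.4%). In the other direction it was 440 of 462 (95.2%, 92.9% to 97.0%). Over the whole lists these shares were 85.9% and 93.6%. Most peaks without a partner scored low, as they did over the whole lists. Of the 61 in replicate 1, 57 lay in the lowest 25% of that list by score, and of the 22 in replicate 2, 17 did so (93.4% and 77.3%). Over the whole lists it was 92.4% of 542 such peaks in replicate 1 and 81.5% of 233 in replicate 2.

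Of the 10 highest-scoring members found in both replicates, 7 were on the left, 3 in the middle and none at the right end. The strongest was IV:1054122-1057548, the second-ranked peak of the whole list, 3427 bp wide and at the tied score of 3100 in both replicates. A pair of other members of the 10 lay at slightly lower coordinates. IV:1011561-1013639 (2079 bp, rank 13 of 7546) stood at 3100 in both replicates, and IV:991830-992989 (1160 bp, rank 23) scored 2435 in replicate 1 and 2475 in replicate 2. Further along the left stretch were IV:1328263-1329701 (rank 16), IV:1979961-1981949 (rank 51), IV:2889469-2891503 (rank 70) and IV:3598287-3600266 (rank 34), each at 3100 in both replicates. The middle stretch contributed IV:9403125-9404370 (1246 bp, rank 7), which scored 2378 in replicate 1 and 2457 in replicate 2. It also held IV:13296928-13298641 (rank 22) and IV:9883738-9885314 (rank 46), both at 3100 in each replicate. At the right end the first was IV:17379666-17381231 (1566 bp, rank 289), with 2668 in replicate 1 and 1564 in replicate 2. It was followed by IV:17328381-17329690 (rank 372) and IV:17332824-17335740 (rank 967), which share a single replicate 1 peak of 8453 bp and meet separate peaks of 2149 and 3955 bp in replicate 2.

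Counts of strong sites, those in the upper 10% by score, ran from 0 to 8 per bin outside the clusters. Whether that spread exceeds counting error was not tested, and the bins named here were picked after their values were seen. The bins from 1 to 1.5 Mb, 7.5 to 8 Mb, 8.5 to 9 Mb, 9.5 to 10 Mb and 12 to 12.5 Mb each held 8 peaks of the upper 10%, and the bin from 7 to 7.5 Mb held 0 among its 37 peaks. Of the 229 members that overlapped neither replicate, 4 were in the upper 50% by score (1.75%, beside 2.56% over the whole list). The highest-scoring members that overlapped neither replicate were IV:11070846-11072579 (1734 bp, at percentile 56.2), IV:11072696-11074309 (1614 bp, at percentile 55.3) and IV:463924-464342 (419 bp, at percentile 54.0). The first 2 lie 116 bp apart in the fullest bin. The genes at these sites were not analysed here.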

How the data were processed

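The data are 3 deposited GFF3 peak lists, which per the file headers use WormBase WS220 coordinates. BWA and ce10 are named, with no role or version, in the submitters' processing notes. The source column gives MACS for the authors' replicate lists and MACS v2 for their combined list. Thresholds, read filters, the use of the input and the making of the combined list are not given in the sources used here. Each peak carries a score deposited by the authors, on a scale not given, from 1.35 to 223 in the combined list and from 50.1 to 3233 in the replicate lists. Start and end are the other deposited values. No column was left unused for want of a sample.

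Groups came from the sample titles. Midpoints placed peaks in stretches, and peaks sharing at least 1 bp counted as overlapping. Densities used the length of each stretch and bins of 0.5 Mb, a last bin being kept if at least 50% of that size. Ranks are percentiles within a list. Intervals of medians are exact, from order statistics, and those of density ratios come from exact binomial intervals of the counts. Distances were taken within a stretch. Paired replicate peaks are each replicate 1 peak and its partner of largest overlap. The regions, lists and rules were chosen with earlier results of these data known. Sites named in the text are the 10 strongest in both replicates, the 3 strongest of each stretch, the 3 widest, the 3 most isolated, the 3 strongest in neither replicate, the fullest and emptiest bins, the longest distances, the replicate peaks with most members and the peaks at the limits. The largest groups and the runs of bins were added after their values were seen. No sequence or gene is given, because no genome of the build was used. Overlap, bin and distance functions were tested on simulated data. Python 3.11.15, numpy 2.4.6, pandas 2.3.3 and scipy 1.17.1 were used.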

Additional observations from a re-analysis of the deposited data

How the results depend on the processing

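The alternatives were other bin sizes, each replicate list alone, stronger peaks, merged peaks, covered length, shifted cluster limits and stricter overlap. The ratio of density outside over inside the clusters stayed between 1.31 and 1.66 over 11 of these. It fell to 0.925 when distances over 50 kb were taken out of the length, a step added after the data were examined that removes more length inside the clusters than outside. The density outside the clusters was 43.5 and 40.9 peaks per Mb in the replicate 1 and replicate 2 lists, 42.9 for the top 50% by score, 52.4 for peaks in both replicates and 63.8 for merged peaks, and 76.8 kb of peak per Mb as covered length. Each of these counts fewer or other units. The share of peaks in both replicates was 23.1% with a reciprocal overlap of 50%, 94.6% in the top 50% by score and 47.1% against replicate lists without their lowest 25%. Leaving out a replicate gave 63.9% to 73.0%. Median width was 1342 bp in the top 50%, 1199.5 bp for peaks in both replicates and 1128.5 bp for merged peaks. The median score rank of peaks in both replicates was 70.7. Median spacing was 11503 bp in the top 50%, 6717 bp for peaks in both replicates and 4510.5 bp between midpoints. Combined-list peaks per replicate peak were 1.36 to 1.46 with a replicate left out, an alternative added later. No paired analysis was possible because the input samples, which share the replicate numbers, were not analysed here and no value comes from a test. The read depth is unknown, so weak sites missed in a list cannot be told from absent ones.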
